A study of Mus musculus
Mus spretus with 18 samples.

Results

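The genes examined here encode the SF3A and SF3B subcomplexes of the spliceosome, the target of the splicing inhibitor pladienolide B. They are Sf3a1, Sf3a2 and Sf3a3 for SF3A, and Sf3b1, Sf3b2, Sf3b3, Sf3b4, Sf3b5 and Phf5a for SF3B. They were chosen by symbol, and all 9 were found among the 38924 genes of the deposited expression table and among the 22136 genes that passed the filter on low values. In the tables of skipped exon (SE) events, 101 different events lay in these genes, out of 125200 events in all. The table of retained introns listed 2243 introns, 0 of them in these genes, so intron retention could not be compared.

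SF3A and SF3B bind the U2 small nuclear RNA to form the mature U2 snRNP, the particle that recognises the branch site upstream of the 3′ splice site and places the branch point adenosine for the first step of splicing. Sf3b1 holds the branch helix in its ring of HEAT repeats, with Phf5a at the hinge of the ring, and pladienolide B lodges in the pocket between these proteins, where the branch point adenosine would sit. Sf3b3 and Sf3b5 support the ring, Sf3b2 and Sf3b4 contact RNA upstream of the branch site, and the SF3A proteins hold SF3B to the rest of the U2 particle. All genes that are spliced by the major spliceosome depend on this particle, including most of the genes that encode it.

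All libraries came from F1 hybrids of a C57BL/6J mother and a SPRET/EiJ father, so every sample carried both parental alleles of each gene. Cerebral cortex, heart, kidney, lung and spleen were taken from 2 female animals aged 8 weeks. The liver data, also labelled 8 weeks, came from the same animals and were made in an earlier study, and the liver labels name the strains differently. Embryonic stem cells (ESC) were 2 clones, grown in 2i with LIF. A fibroblast line made from the same hybrids was treated for 4 h with 0.1 μM pladienolide B (PladB) dissolved in DMSO, or with DMSO alone. Each of the 9 groups had 2 libraries, 18 in all, so that with 2 per group the p-values measure only the spread between these libraries. For the fibroblasts, which are 1 line, nothing states that the replicates were separate cultures.

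Junction counts summed over all SE events ranged from 46558287 to 129496306 per tissue library and from 129067054 to 151755602 per fibroblast library. A junction listed in several events enters such a sum each time, so the sum is not a number of reads. No 2 of the 18 libraries were identical. In each of the 7 tissues 4 of 4 marker genes of the labelled tissue were above every other library, and 3 of 4 in the fibroblasts. The PladB libraries differed from the DMSO libraries in composition. Malat1, a largely unspliced nuclear RNA, took between 0.517% and 0.532% of all TPM after PladB and between 0.00963% and 0.0112% after DMSO, and mitochondrial genes took between 10.9% and 11.04% against 8.45% to 8.49%.

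Expression is given as TPM, transcript abundance divided by gene length and by the library total, so levels can be compared between genes. Sf3b2 was the highest of the 9 genes in 13 of the 18 libraries. Sf3b5 led in the 4 fibroblast libraries, and Sf3b1 in 1 spleen library. The SF3A genes sat lower: Sf3a1 was last in 10 libraries and Sf3a2 in 6, with Sf3b4 last in the remaining 2.

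Across the tissues, ESC and spleen stood at the top and liver at the bottom for nearly the whole set on TPM as deposited. On this scale mean TPM was highest in ESC for 8 genes and in spleen for Sf3b1, and lowest in liver for all 9. The highest tissue mean was between 5.08 times (Phf5a) and 14.3 times (Sf3b3) the lowest. These spans shrank with TPM rescaled by the median ratio, as described below. The log2 range over tissues went from 2.35 to 0.69 for Sf3b2 and from 3.77 to 2.14 for Sf3b3. Liver then had the lowest mean only for Sf3b2, Sf3b3, Sf3a1 and Sf3a2. For Phf5a, the log2 difference from the other tissues was 0.10 in liver and -0.97 in cortex. Since these were bulk samples, more cells of a kind that uses these genes cannot be told apart from more RNA per cell.

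Sf3b1, the subunit that carries the inhibitor's pocket, read 285 and 250.1 TPM in spleen, 214 and 189.8 in ESC, 194 and 187 in cortex, 117 and 114 in lung, 103 and 98.9 in kidney, 51.5 and 56.4 in heart, and 47.4 and 46.2 in liver. Its values in ESC and cortex overlapped, whereas all the other neighbours in this order did not. No other member had cortex so close to ESC.

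Sf3b2 read 314 and 374 TPM in ESC, 278 and 258 in spleen, 241 and 252 in cortex, 226 and 228 in lung, 157 and 164 in kidney, 155 and 154 in heart, and 68.4 and 64.7 in liver. Its partner at the RNA, Sf3b4, read 108 and 146 TPM in ESC, 54.1 and 56.3 in spleen, 43.2 and 42.1 in lung, 33.4 and 33.9 in cortex, 27.7 and 30.2 in kidney, 17.1 and 16.04 in heart, and 10.8 and 9.79 in liver. In neither gene did neighbouring tissues overlap. Liver was lowest in both as deposited, far below the rest for Sf3b2 but nearer to heart for Sf3b4.

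Sf3b3, which forms a large scaffold beside the ring, had the widest range. It read 295 and 263 TPM in ESC, 149.8 and 152 in spleen, 72.7 and 78.9 in cortex, 61.0 and 60.2 in lung, 48.8 and 48.6 in kidney, 43.8 and 47.8 in heart, and 18.9 and 20.2 in liver. Its ESC values were well apart from those of any organ, again with no overlap between neighbours.

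Sf3b5, the smallest subunit and the product of an intronless gene, read 192 and 294 TPM in ESC, 175 and 159 in spleen, 128 and 128 in lung, 86.7 and 85.6 in heart, 79.0 and 88.4 in kidney, 67.8 and 69.1 in cortex, and 36.9 and 33.7 in liver. Phf5a, the other small subunit, read 133 and 233 TPM in ESC, 124 and 140.2 in spleen, 74.5 and 76.3 in lung, 55.2 and 56.98 in kidney, 52.9 and 54.0 in heart, 50.8 and 50.04 in cortex, and 37.98 and 34.03 in liver. Heart and kidney overlapped for Sf3b5, as did ESC and spleen for Phf5a.

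Among the SF3A genes, Sf3a1, which also contacts the U1 snRNP, read 71.1 and 99.8 TPM in ESC, 49.6 and 50.5 in spleen, 39.0 and 42.7 in cortex, 29.3 and 30.9 in lung, 27.7 and 28.3 in heart, 21.3 and 21.9 in kidney, and 7.78 and 7.45 in liver. Sf3a2, a zinc finger protein, read 62.8 and 107 TPM in ESC, 69.3 and 63.5 in spleen, 45.5 and 42.6 in lung, 27.4 and 26.6 in heart, 24.6 and 26.6 in cortex, 21.8 and 22.5 in kidney, and 9.47 and 7.92 in liver. Sf3a3, another zinc finger protein, read 93.4 and 131 TPM in ESC, 77.0 and 77.4 in spleen, 44.7 and 46.2 in lung, 39.7 and 38.5 in cortex, 31.9 and 31.7 in kidney, 23.6 and 24.6 in heart, and 17.2 and 15.6 in liver. ESC and spleen overlapped for Sf3a2, whose heart and cortex values met at 26.6, and no neighbours overlapped for Sf3a1 and Sf3a3. Between the ESC clones, clone 2 read 1.75 times clone 1 for Phf5a and 1.71 times for Sf3a2, but 0.888 times for Sf3b1 and 0.892 times for Sf3b3.

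**Figure D1:**
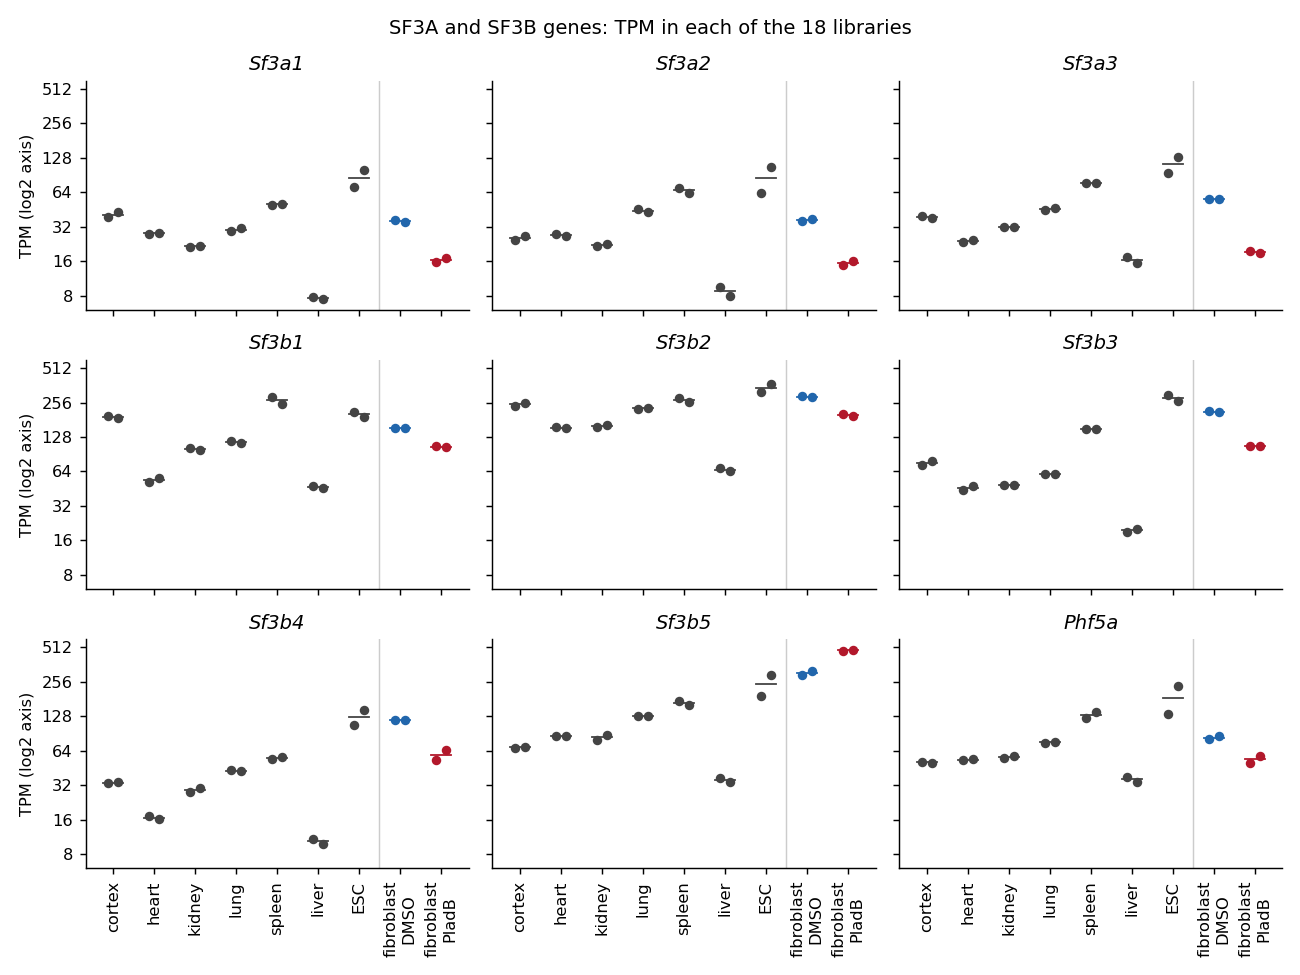
TPM as deposited (log2 axis) of the 9 SF3A and SF3B genes in the 18 libraries, 1 panel per gene. Points are single libraries and short lines the mean of 2, with tissues left and fibroblasts right of the grey line. ESC is the highest tissue mean in all panels but that of Sf3b1, liver is the lowest in all 9, and Sf3b5 is the gene whose PladB libraries lie above its DMSO libraries.

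Each tissue was tested against the mean of the other 6 with limma on log2(TPM + 1), adjusted over all genes tested by the Benjamini-Hochberg method. Because TPM shares out a fixed total, the test was repeated on TPM rescaled in each library by the median ratio over 9075 genes, and the count after rescaling follows each count. The moderated F test over the 7 tissues called 9 of the 9 genes, where it called 99.2% of all genes, so this count says little about the members. In ESC 9 genes were higher (9 rescaled), where 46.7% of all genes were called higher (33.9% rescaled). In spleen 9 were higher (9 rescaled), against 42.2% of all genes (32.6%). In kidney 9 were lower (9 rescaled), against 44.5% (45.2%). In liver 9 were lower (8 rescaled), against 81.9% (56.6%), so most genes shared the direction seen in liver.

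The remaining organs gave mixed calls. In heart 6 members were lower (4 lower and 1 higher rescaled), with 65.0% of all genes lower (50.4% lower and 27.2% higher). In cortex 3 were higher and 3 lower (1 and 6 rescaled), with 48.8% and 34.2% of all genes (40.1% and 42.3%). In lung 4 were higher and 1 lower (1 and 2 rescaled), with 39.3% and 34.2% of all genes (33.7% and 39.9%). The higher call in cortex that held on both scales was that of Sf3b1, at a log2 difference of 0.81 (SE 0.059; limma adjusted p = 8.02e-08) and 0.42 rescaled.

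The size of the difference in ESC ran from a log2 difference of 0.90 for Sf3b1 to 2.30 for Sf3b3, with a median of 1.56, where the median of all genes was 0.14. After rescaling these members spanned 0.22 to 1.62 with a median of 0.89, and all genes had a median of -0.27. In spleen the members' median was 1.02 as deposited and 0.64 rescaled, beside 0.03 and -0.20 for all genes. In liver it was -1.74 as deposited and -0.49 rescaled, beside -1.03 and -0.37 for all genes, and Phf5a turned from -1.14 to 0.10. Blood and leukocyte markers summed to 2957 and 5538 TPM in spleen, 3809 and 2997 in lung, 2808 and 3559 in heart, 564 and 443 in liver, and 138 and 36.3 in ESC. Their part in the result was not tested.

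On TPM as deposited, the members resembled each other in their pattern over tissues. Pearson's r between the log2 values of 2 members had a median of 0.916 over the 36 pairs in the 14 tissue libraries, with a range of 0.704 to 0.985. Over all 18 libraries the median was 0.803 and the range 0.387 to 0.958. These r describe points that share libraries and tissues, and carry no test. A shift in scale that all genes of a library share enters each r. The size factors of the rescaling ran from 0.462 in a liver library to 1.54 in an ESC library. No r was taken on rescaled TPM or between pairs of other genes. The likeness is thus not shown to be particular to the members, and the genes named next have the same limit. Outside the set, the genes nearest to the mean pattern of the members over the 18 libraries were Med10 (r = 0.992), Hnrnpm (0.990), Prpf31 (0.987), U2af2 (0.982) and Zfp593 (0.979), out of 22127 genes. Hnrnpm binds pre-mRNA, Prpf31 belongs to the U4/U6.U5 tri-snRNP and U2af2 binds the polypyrimidine tract, while Med10 is a Mediator subunit. U2af2, for example, had mean TPM of 347 in ESC, 46.5 in liver, 222 after DMSO and 167 after PladB.

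PladB against DMSO asked whether transcripts of the inhibited complex itself change within 4 h. On TPM as deposited, 8 of the 9 genes were lower and 1 was higher, while on rescaled TPM 0 were lower and 5 were higher, so no lower call was made on both scales. At an unadjusted p below 0.05, limma gave 1 lower and 5 higher rescaled. As deposited, 43.8% of all genes were called lower and 6.66% higher, and rescaled 23.9% were lower and 27.1% higher. Rescaling moved the members' log2 changes up by between 1.19 and 1.24, and the median of all genes tested from -0.21 to 0. Of the 9413 genes at 10 TPM or more after DMSO, the median log2 change as deposited was -1.12, with quartiles at -2.02 and -0.23.

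Sf3b5 was the member that was higher on both scales. It read 292 and 320.2 TPM after DMSO and 479 and 485 after PladB, and the groups did not overlap. Its log2 change was 0.66 (SE 0.149; limma adjusted p = 0.00241) as deposited and 1.89 rescaled, at percentile 96.2 of the expressed genes named above.

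Sf3b1 read 154 and 152 TPM after DMSO and 106 and 104 after PladB, a log2 change of -0.54 (SE 0.0773; limma adjusted p = 6.64e-05) that turned to 0.69, called higher, when rescaled. Sf3b2 read 289.8 and 285 against 204 and 195, a log2 change of -0.53 that likewise turned to 0.71, called higher. Phf5a read 80.7 and 85.3 against 50.1 and 57.2, with -0.62 (adjusted p = 0.0147) turning to 0.60, called higher. In each of these genes the DMSO and PladB libraries did not overlap in TPM, and each lay in the upper part of the expressed genes, at percentiles 65.7, 66.2 and 63.2. The deposited call for Phf5a was lost without DMSO replicate 2 (-0.58, adjusted p = 0.0738) and without PladB replicate 1 (-0.53, adjusted p = 0.0993).

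Sf3b3 read 214 and 209.7 TPM after DMSO and 108 and 107 after PladB, a log2 change of -0.98 that turned to 0.26, called higher, when rescaled. Sf3b4 read 119 and 119.6 against 53.4 and 64.3, with -1.01 turning to 0.21, not called. Both sat near the middle of the expressed genes, at percentiles 54.4 and 53.2.

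The SF3A genes had the lowest changes of the set. Sf3a1 read 36.9 and 35.3 TPM after DMSO and 15.9 and 16.9 after PladB, with a log2 change of -1.09 (SE 0.119; limma adjusted p = 6.00e-06), and 0.09, not called, when rescaled. Sf3a2 read 36.1 and 37.4 against 14.9 and 16.04, at -1.20, and -0.01 rescaled, not called. Sf3a3 read 56.1 and 56.1 against 19.6 and 18.8, the lowest of the members at -1.50, and -0.30 rescaled, not called. On the scale of the expressed genes these were percentiles 50.8, 47.9 and 39.2, so the SF3A genes lay in the middle of the expressed genes.

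Gene TPM counts all reads over exons, whether or not they are spliced, so the reads that cross into the listed alternative exons were summed for each member as a second measure, chosen after its values were seen and given with no test. Counts were scaled to the same sum of junction counts over all SE events in each library (per 1000000). On this scale Sf3a1 had 49.0 and 46.0 inclusion reads after DMSO and 2.67 and 3.40 after PladB over 5 exons, a level 15.6 times lower. Sf3a2 had 43.1 and 46.1 against 4.53 and 5.82 over 5 exons, 8.62 times lower. For both genes this was a far larger difference than in TPM.

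The median of the expressed genes with such reads was a log2 change of -1.42, with quartiles at -2.67 and -0.25, and Sf3a1 and Sf3a2 lay at percentiles 5.92 and 17.0. Sf3a3 was 3.12 times lower by junction reads, Sf3b3 2.42 times, Phf5a 2.41 times, Sf3b2 1.30 times and Sf3b1 1.29 times. These 5 lay at percentiles 45.8, 52.9, 53.0, 71.7 and 72.1, in the middle or upper part of the expressed genes. On the log2 scale the junction change minus the TPM change was -2.87 for Sf3a1, at percentile 1.61 of 7692 expressed genes with such reads, and -1.91 for Sf3a2, at percentile 5.29. The quartiles of that difference over these genes were -0.60 and 0.20. The other 5 members with events had differences from -0.65 (Phf5a) to 0.17 (Sf3b1). Sf3b4 and Sf3b5 had no listed event and so no value.

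**Figure D2:**
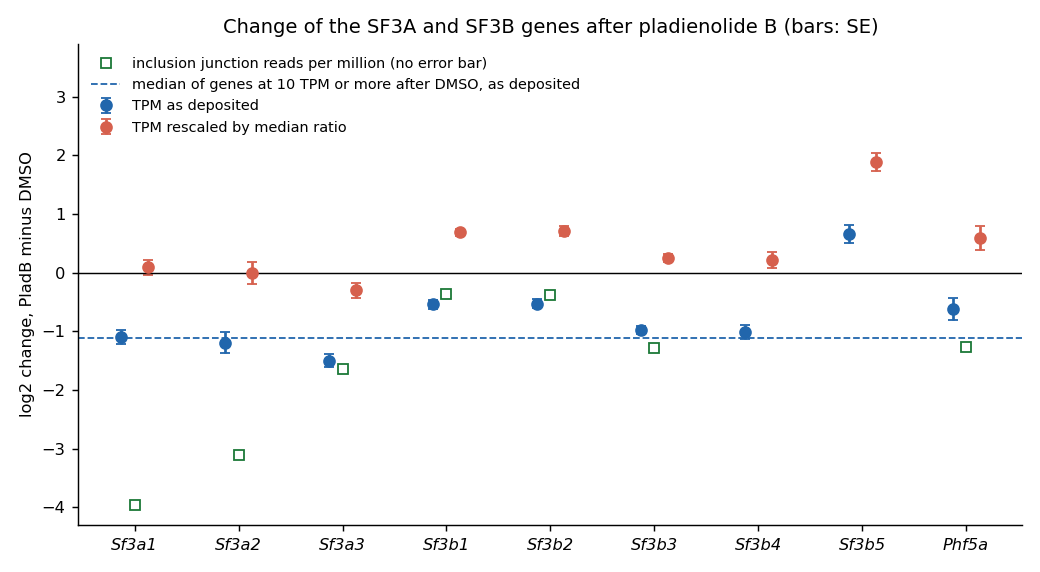
Log2 change of each SF3A and SF3B gene from DMSO to PladB: TPM as deposited (blue) and rescaled (red) with SE from the limma fit, and inclusion junction reads scaled to the library total (green squares, no error bar). The dashed line is the median of 9413 expressed genes as deposited; rescaling lifts 6 of the 8 negative deposited changes above 0, and the junction reads of Sf3a1 and Sf3a2 lie at -3.97 and -3.11.

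Lists of other splicing factors, also chosen with earlier results known, were counted on the same comparison. Of the 10 measured genes on a list of other U2 snRNP proteins, which also holds the remaining SF3B subunit Sf3b6, 1 was lower and 4 were higher as deposited (0 and 9 rescaled), with a median log2 change of 0.18 (1.40 rescaled), beside -0.98 (0.26) for the 9 members. Here Snrpg went from 236 and 258 TPM after DMSO to 413 and 394 after PladB, a log2 change of 0.71 (1.94 rescaled), Snrpd2 was at 0.70 (1.93) and Snrpe at 0.63 (1.86). These 3 are proteins of the Sm ring that all spliceosomal snRNPs of this class share. Snrpd1, another Sm protein, was at -0.65 (0.58 rescaled). Sf3b6, listed as 0610009D07Rik, was at -0.18 (1.05 rescaled) and was not called as deposited.

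Of the 15 factors of branch site and 3′ splice site recognition, 12 were lower and 1 higher as deposited (7 and 6 rescaled), with a median of -1.20 (0.03 rescaled). The lowest were genes for proteins that modulate this step. Sugp1, a partner of Sf3b1, went from 46.1 and 45.3 TPM to 5.57 and 6.51, a log2 change of -2.73 (-1.59 rescaled), Rbm10 was at -2.61 (-1.45) and Rbm5 at -2.54 (-1.40). Smndc1 was at 0.29 (1.51). Of the U4/U6.U5 tri-snRNP proteins 12 of 14 were lower (median -1.01, 0.20 rescaled), of the U11/U12 proteins, of the minor spliceosome, 6 of 8 (-1.05, 0.12), and of the U1 proteins 2 of 3 (-0.57, 0.66), with 0 called higher in these 3 lists as deposited. Rescaled, 7 were higher and 6 lower in the first, 4 and 4 in the second, and 2 and 0 in the third. In ESC 10 of 10, 14 of 15, 14 of 14, 7 of 8 and 3 of 3 genes of these lists were called higher as deposited, in the order named here, and 9, 12, 12, 4 and 3 rescaled, where 46.7% and 33.9% of all genes were. Rescaled, 2 genes of the branch site list and 2 of the U11/U12 list were called lower in ESC.

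Splicing was measured as percent spliced in (PSI), the share of transcripts that include an alternative exon, from reads over the junctions that include it and the junction that skips it. The fibroblast table listed 89 events of the members, out of 67961, and 84 events on 56 different exons had at least 20 reads in each of the 4 libraries. Sf3b3 had 29 of them, Sf3a3 15, Sf3b1 14, Sf3a2 8, Sf3a1 7, Sf3b2 7 and Phf5a 4. Events of 1 gene can share junctions: the 84 events used 74 skipping junctions. An exon can also be listed with several skipping junctions, some of which jump neighbouring exons too, and the PSI of an event compares inclusion of its exon with that 1 junction. In 46 of the 84 events the junction jumped only the exon itself among the exons listed here, and in 38 it jumped more.

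After DMSO, the exons of these genes were included almost without exception. All 84 events had a PSI above 0.95, and the lowest mean PSI was 0.996. In 69 events (82.1%) there were no skipping reads in either library, compared with 44.0% of all 54535 events tested. After PladB, 5 of the 84 events (5.95%) were without skipping reads, compared with 15.5% of all events. An event enters the table only where its skipping form was annotated or seen in the run, so an exon that is never skipped after DMSO is listed partly because it was skipped after PladB.

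The 69 events without skipping reads after DMSO could only go down, so the direction of the members' changes over all 84 events carries no information. Of the 15 events with skipping reads after DMSO, 10 were lower after PladB (66.7%), beside 54.1% of 30526 such events in all, given as a description. The median ΔPSI of the members, -0.00597, lay close to that of all events, -0.00524. A quasi-binomial logistic model called 6 of the 84 (7.14%), at a false discovery rate (FDR) below 0.05 with |ΔPSI| of at least 0.1. All 6 were lower, where 7.13% of all events were called lower and 7.23% in either direction. The share of called events was thus at the background. A further 14 events had an FDR below 0.05 with a smaller ΔPSI.

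**Figure D3:**
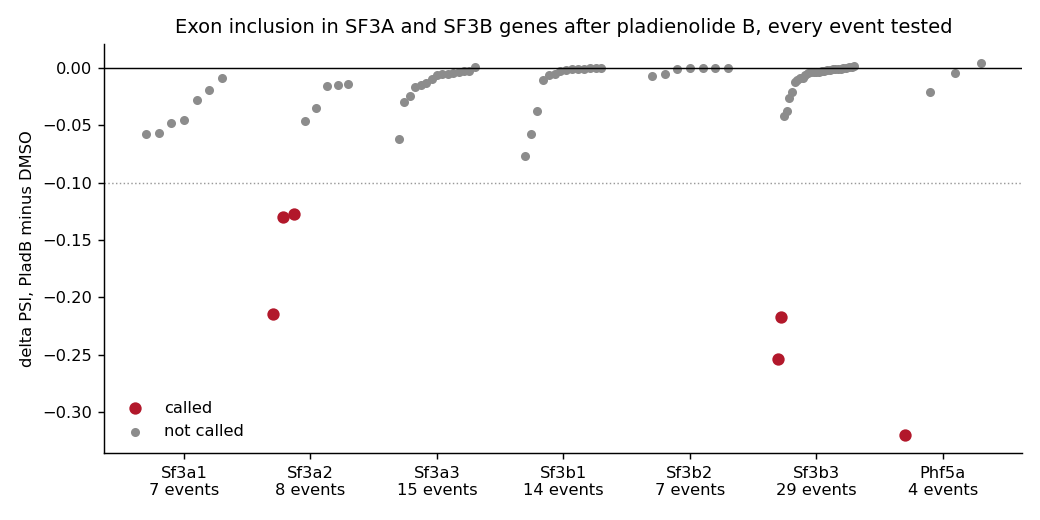
ΔPSI (PladB minus DMSO, means of 2 libraries) of each of the 84 tested events in the 7 SF3A and SF3B genes that have any, ordered by size within a gene; red points were called and the dotted line marks -0.1. Sf3a2, Sf3b3 and Phf5a hold the 6 called events, down to -0.320, and no positive value exceeds 0.00448.

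Phf5a held the largest change. Its 24-nt exon at chr15:81871166-81871189 (mm10, minus strand), between the exons that end at 81870498 and begin at 81871813, was included in 1653 and 1784 reads and skipped in 0 and 1 after DMSO. After PladB 501 and 691 reads included it, and 191 and 301 skipped it, so that PSI was 0.694 and 0.665 and ΔPSI was -0.320 (FDR = 0.00100). A PSI of 1.00 and 0.999 after DMSO lay far above both PladB libraries. The same exon joined to another 5′ exon, which begins at 81871593, had 0 and 0 skipping reads after PladB, with 151 and 181 inclusion reads.

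Sf3b3 had 2 called events. The 99-nt exon at chr8:110812966-110813064 (minus strand) had 4316 and 4166 inclusion reads and 0 skipping reads in both DMSO libraries, which allows up to 0.0695% and 0.0720% of skipping reads. After PladB it had 1660 and 1654 inclusion and 271 and 415 skipping reads, a PSI of 0.787 and 0.706 (ΔPSI -0.253, FDR = 0.00185). The other event sets the 73-nt exon at chr8:110831484-110831556 against a junction from 110826246 to 110841110, which jumps it and 5 more listed exons, 690 nt in all. It had 1130 and 1148 inclusion and no skipping reads after DMSO, and 423 and 471 against 62 and 109 after PladB, a PSI of 0.821 and 0.744 (ΔPSI -0.217, FDR = 0.00280). Against the junction to its adjacent exon, at 110833780, the same 73-nt exon had 9 and 7 skipping reads beside 1231 and 1304 inclusion reads after PladB, a PSI of 0.989 and 0.992 (ΔPSI -0.00931), and was not called. In both called events the PladB libraries were apart from each other by less than from DMSO.

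Sf3a2 had 3 called events, all on the plus strand of chromosome 10 and all with no skipping reads after DMSO. In 2 of them the skipping junction, from 80798805 to 80802792, jumps 3 listed exons of 163, 72 and 47 nt, 282 nt in all. Against this junction the 47-nt exon at chr10:80802398-80802444 had 33 and 33 inclusion and 5 and 9 skipping reads after PladB, a PSI of 0.835 and 0.737 (ΔPSI -0.214, FDR = 0.0113). The 163-nt exon at chr10:80801196-80801358 had 68 and 119 inclusion reads beside the same 5 and 9 skipping reads, at a PSI of 0.872 and 0.869 (ΔPSI -0.130, FDR = 0.0112). Against junctions that jump only the exon itself neither was called: the 47-nt exon had 3 and 0 skipping beside 127 and 170 inclusion reads (ΔPSI -0.0150), and the 163-nt exon 0 and 5 beside 190 and 302 (ΔPSI -0.0160). The third event, in which only the 50-nt exon at chr10:80803460-80803509 is jumped, had 96 and 145 inclusion and 8 and 20 skipping reads, a PSI of 0.9003 and 0.845 (ΔPSI -0.127, FDR = 0.00479). The skipping reads here were few, since after PladB this gene kept 33 to 145 inclusion reads per library in these events, against 243 to 1086 after DMSO.

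In the other members no event was called. The largest decrease in Sf3b1 was at the 121-nt exon chr1:54995366-54995486, with 65 and 64 skipping reads after PladB, a PSI of 0.916 and 0.930 and a ΔPSI of -0.0768 (FDR = 0.00302), which stays short of the limit of 0.1. Its junction jumps the neighbouring 112-nt exon as well, and against the junction that jumps it alone the same exon had 13 and 15 skipping beside 3419 and 4410 inclusion reads (ΔPSI -0.00646). In Sf3a3 it was at an 83-nt exon, jumped together with a listed neighbour, with 9 and 8 skipping reads and a ΔPSI of -0.0620 (FDR = 0.0168). In Sf3a1 a 122-nt exon had 0 and 5 skipping reads beside 64 and 70 inclusion reads after PladB, a ΔPSI of -0.0573 (FDR = 0.0568), where the 0 allows up to 4.69% of skipping reads. In Sf3b2, the most abundant member in most libraries, the largest ΔPSI was -0.00748 at a 118-nt exon (FDR = 0.112). Its junction jumps 3 other listed exons, and also exons that appear here only as flanks of other events.

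The 6 called events used 5 skipping junctions, and in 4 of these the listed exons jumped add up to a multiple of 3 (24, 99, 282 and 690 nt), a length that keeps the reading frame within coding sequence. Of all 74 junctions of the members, 32 were such. Exons that appear only as flanks of other events were not counted, so a sum can fall short of the full length jumped. With any 1 fibroblast library left out, or with the replicate number as a block, 0 of the 84 events and 0 of all events passed the adjusted threshold of the quasi-binomial model, while between 11 and 25 of the 84 had an unadjusted p below 0.05. limma on the logit of PSI, in all 4 libraries without a block, called 6. The ΔPSI of the 6 events stayed negative in each of these fits, which carries no information. With no skipping reads after DMSO, 5 of them could only go down, and the Phf5a exon had 0 and 1 such reads. In size, the ΔPSI of the 50-nt exon of Sf3a2 was -0.0997 without PladB replicate 2. Adjusted p-values then lay between 0.0812 and 0.546.

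**Figure D4:**
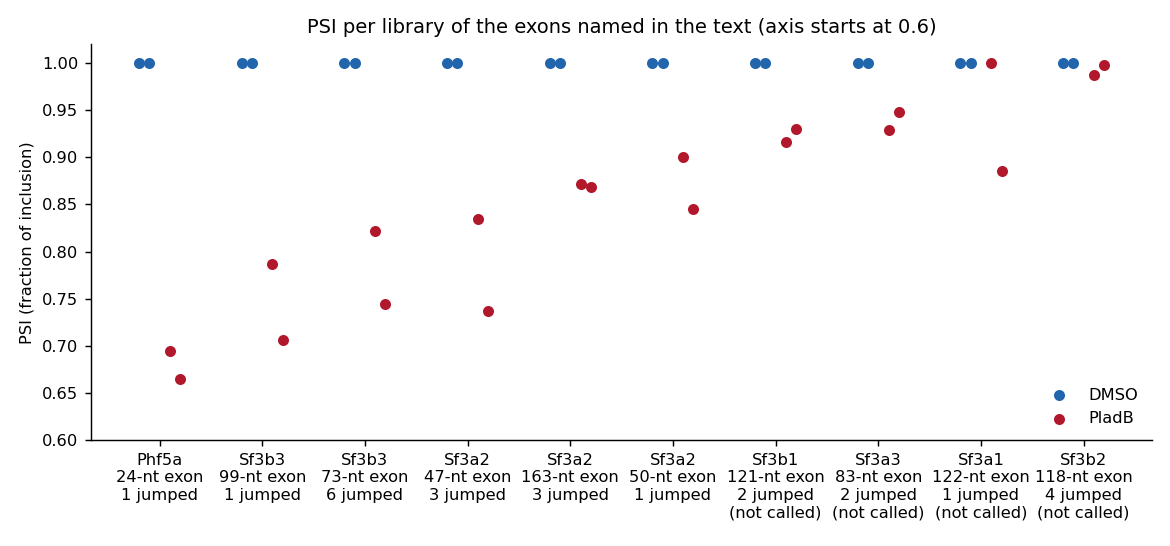
PSI in each fibroblast library for the 6 called events and the event with the largest ΔPSI of each other member with events (axis from 0.6 to 1), named by its exon and by how many listed exons the skipping junction jumps. All DMSO libraries lie at or next to 1; PladB libraries go down to 0.665 in Phf5a, and 1 of the 2 stays at 1 for the Sf3a1 exon.

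In the tissues few exons of these genes were listed: 25 in ESC, 14 in spleen, 5 in lung, 4 in each of cortex and heart, 3 in kidney and 2 in liver. Of these, 10 events had at least 20 reads in both libraries of 2 or more tissues, and the quasi-binomial model called 0 of the 10 as differing between tissues, where it called 9.48% of all events. At an unadjusted p below 0.05 there were 0, and limma on the logit of PSI also called 0. The largest difference between tissues was 0.00800, for the 273-nt exon of Sf3b1 at chr1:54990303-54990575. Spleen replicate 2 had 139 skipping reads beside 12054 inclusion reads there (PSI 0.977), and spleen replicate 1 had 0 beside 14636 (PSI 1.00). The spleen replicates thus differed by more than the means of any 2 tissues.

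The lowest PSI of any member event in any tissue library was 0.977. The 24-nt Phf5a exon had a PSI of 0.998 or more in lung and spleen. The 99-nt exon of Sf3b3, listed in ESC alone among the tissues, had 28 and 50 skipping reads beside 4595 and 4734 inclusion reads there, at a PSI of 0.988 and 0.979, close to full inclusion but with more skipping reads than the 0 seen in DMSO fibroblasts at similar depth.

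Reads that carry variants between the strains were used to compare the alleles within each library, as C57BL/6J minus SPRET/EiJ. In the 7 tissues, 31 pairs of a member event and a tissue could be tested, none of them in liver, and 0 were called, where 1.27% of all pairs were. For the 12 pairs of ESC, a check on imprinted genes did not settle which allele is which, so the sign of allelic values there is uncertain. The largest |ΔPSI| was 0.0437, at a 112-nt Sf3b1 exon in spleen, and 0 pairs had an unadjusted p below 0.05 in the quasi-binomial model. After DMSO 0 of 7 events were called (1.76% of all events), with |ΔPSI| up to 0.00649 and 0 at an unadjusted p below 0.05. After PladB 0 of 43 were called (1.70% of all events), and 4 of them had an unadjusted p below 0.05. limma on the logit of PSI called 0 in each of these comparisons.

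After PladB the largest allelic differences of the members were in Sf3a1, at -0.110 (FDR = 0.476) and -0.105 (FDR = 0.316). The first rests on 0 and 5 skipping reads of the C57BL/6J allele, with none on the SPRET/EiJ allele, and its exon is the 122-nt one described above. The 99-nt exon of Sf3b3 had a PSI of 0.763 and 0.637 on the C57BL/6J allele and of 0.811 and 0.769 on the SPRET/EiJ allele, a ΔPSI of -0.0901 (FDR = 0.316). The 24-nt exon of Phf5a had 0.634 and 0.629 against 0.531 and 0.667, a ΔPSI of 0.0325 (FDR = 0.905), so it was skipped from both alleles. The other 4 called events were not testable by allele at 20 reads. The 163-nt exon of Sf3a2, against the junction that jumps it alone, had 1.00 and 0.951 on the C57BL/6J allele and 1.00 and 1.00 on the SPRET/EiJ allele, a ΔPSI of -0.0243 (FDR = 0.592).

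The interaction of allele and treatment could be tested for 6 member events, of which the quasi-binomial model called 0, where it called 0.0374% of all events, and limma on the logit of PSI called 0. At an unadjusted p below 0.05 there were 0. The largest difference of the allelic ΔPSI between treatments was 0.0440. On simulated data, with changes in PSI well above the limit of 0.1, this test found 22.5% of changed events. It found 51.5% of those with a PSI between 0.2 and 0.8, so it had little power for exons near full inclusion.

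The share of allelic junction reads from C57BL/6J was also read per member, at the event with the most allelic reads in each group, as a description chosen after its values were seen. In the tissues it lay between 39.6% and 62.0%. After DMSO Sf3b1 stood at 65.9% and 64.9%, beside a median of 67.8% and 68.0% over the genes of chromosome 1, and Sf3a3 at 67.1% and 69.1%, beside 67.6% and 67.4% for chromosome 4. Chromosome medians in the DMSO fibroblasts ranged from 33.4% to 68.0%, and in cortex from 49.7% to 50.9%.

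Sf3b2 stood at 55.2% and 54.3% after DMSO, below the 58.3% and 58.8% of chromosome 19. Sf3b3 stood at 48.0% and 42.6%, beside 50.4% and 50.5% of chromosome 8. For both genes the event used differed after PladB, so the treatments are not compared. After PladB, Sf3a2 stood at 66.3% and 68.1%, where chromosome 10 had 51.5% and 51.3%. Among the genes of that chromosome these were percentiles 84.6 and 88.8. Sf3a1 stood at 47.2% and 47.0% after PladB, where chromosome 11 had 42.3% and 42.2%, at percentiles 67.4 and 65.4. Phf5a went from 55.8% and 57.3% after DMSO to 65.6% and 68.1% after PladB, where chromosome 15 stayed between 52.1% and 52.9%. Its percentiles there were 66.7 and 70.2 after DMSO and 80.2 and 87.2 after PladB. For Phf5a these shares rest on 693 and 520 reads after DMSO and on 218 and 282 after PladB, at the same 167-nt exon. Sf3a1 and Sf3a2 had no allelic value after DMSO. What moves them was not tested.

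**Figure D5:**
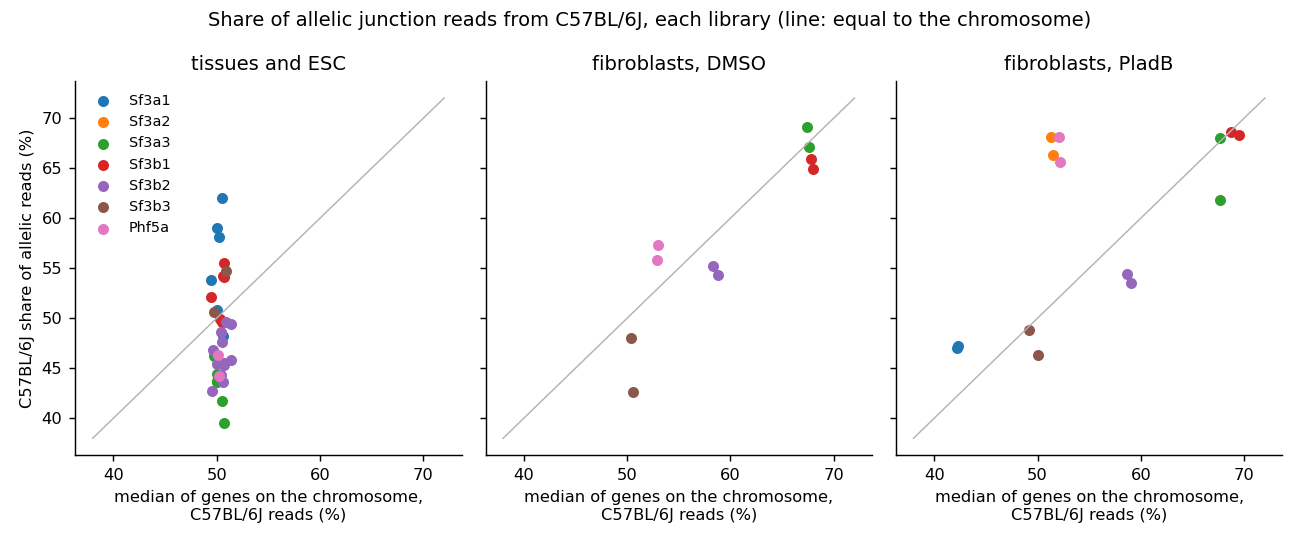
Share of allelic junction reads from the C57BL/6J allele (%) for each member and library, against the median share of the genes on its chromosome (%), for tissues, DMSO fibroblasts and PladB fibroblasts; points on the line equal their chromosome. Tissues gather near 50% on the x axis. Sf3b1 and Sf3a3 lie close to the line near 68% in fibroblasts except 1 PladB library of Sf3a3 at 61.8%. Sf3a1, Sf3a2 and Phf5a lie above the line after PladB.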

How the data were processed

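The authors made strand-specific mRNA libraries and cut the longer reads to a common length. Reads were mapped by the authors with HISAT2 2.0.1, soft clipping off, against mm10 (GRCm38, C57BL/6J) and against a SPRET/EiJ version of it, and were assigned to whichever genome they matched with fewer edits. The deposited TPM values were made by the authors from featureCounts reads over Ensembl exons, per gene and library, with fragments over several genes shared between them. rMATS gave the deposited junction read counts, raw and with both replicates in one cell, and the effective lengths of both forms, deposited as scores. The tables also hold the rMATS p-values, FDRs and inclusion differences of the authors' comparisons, which were not used.

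TPM was tested with limma 3.58.1 (R 4.3.3) on log2(TPM + 1), for genes at 1 TPM or more in at least 2 libraries, with all 9 groups in 1 fit and a trended prior. PSI was computed from counts divided by effective lengths, on autosomes, with at least 20 reads in each library, or in each allele and library. It was tested with a quasi-binomial logistic model whose dispersions, at least 1, were moderated by limma's squeezeVar with a depth trend, and an F test. Benjamini-Hochberg adjustment ran over all genes or events tested. Events were called at an FDR below 0.05 with |ΔPSI| of at least 0.1, and allelic events were kept where allelic and total PSI differed by at most 0.1. A count of 0 was given the limit that 3 reads allow, which covers counting error only.

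The members and gene lists were chosen with earlier results of these data known. All members were named in every library. Events were named where they were called, and otherwise as the one with the largest |ΔPSI| of a member, and from the U2 and branch site lists up to 3 called genes in each direction. Other values printed for events or reads were chosen after they were seen. The genes of most similar pattern were the 5 with the highest Pearson r to the members' mean. Exon positions are those of the deposited tables, and older gene symbols were matched through RefSeq (GRCm38.p6). Alternatives were another pseudocount, no filter, rescaled TPM, fits on fewer libraries, a replicate block, other read minimums, a prior without trend, limma on the logit of PSI, and leaving out events near full inclusion or skipping. Alleles were checked with imprinted genes: 42 of 42 gene and group pairs lay on the named parental allele outside cortex and ESC, 10 of 11 in cortex and 2 of 11 in ESC. The check thus did not settle the order of the alleles in ESC, which was taken to be that of the other groups.

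The models were also run on simulated data of equal depth, with changes in PSI well above the limit for a call. They found 98.0% of 200 changed events for PladB against DMSO and 98.0% across tissues. Between alleles they found between 92.5% and 98.5%. The simulation across tissues held 7913 events, where 47963 were tested. Whether these rates hold for changes near the limit, or for the members' events across tissues, was not tested. In simulated data the TPM test found 82.0% of genes changed by 1 and 98.0% of those changed by 2 on the log2 scale. Python 3.11.15 with numpy 2.4.6 and pandas 2.3.3 was used for the rest.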

Additional observations from a re-analysis of the deposited data

How the results depend on the processing

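Rescaling each library by the median ratio turned the direction of 6 TPM changes after PladB, to 0.69 for Sf3b1, 0.71 for Sf3b2, 0.26 for Sf3b3, 0.21 for Sf3b4, 0.095 for Sf3a1 and 0.60 for Phf5a on the log2 scale, and the number of members called went from 9 to 5. Leaving out any 1 of the 4 fibroblast libraries, which leaves 1 residual degree of freedom, gave 0 called member events after PladB (lowest 0, highest 0), against 6 with all libraries. A minimum of 50 reads gave 5 called events, and a minimum of 10 reads, a prior without depth trend, limma on the logit of PSI, and leaving out events near 0 or 1 gave 6 each. Over all tissues together, the TPM counts stayed within 1.5 times their main value under each alternative run. The member events called across tissues and between alleles were 0 in the main fit and under each alternative. Near full inclusion a |ΔPSI| of 0.1 is hard to reach, so these counts of 0 say little about stability. By tissue, rescaling took cortex from 3 higher and 3 lower to 1 and 6, lung from 4 and 1 to 1 and 2, and heart from 0 and 6 to 1 and 4. Leaving out 1 library leaves no residual degrees of freedom between the alleles of 1 group, and this was not run. The retained introns gave no value.

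With the replicate number as a block, 0 member events were called after PladB (adjusted p between 0.261 and 0.262 for the 6 events). In TPM the block changed no call for PladB against DMSO. The replicate numbers were not read as pairs: 4 of 15 organ pairs had a correlation of replicate deviations above 0.1 (0.00430 to 0.253), and the DMSO and PladB numbers had -0.0397. For alleles, the library as a block also gave 0 calls.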
